A study of Mus musculus with 12 samples.

Results

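Solute carriers are the membrane proteins, numbered in families from Slc1 upward, that move amino acids, transmitters, sugars, ions, metals and metabolites across cell and organelle membranes. The genes described here were those whose symbol begins with Slc and a family number, with a log2 value over 4 on at least 3 of 12 arrays, and each gene was read from its probe set with the highest mean. This gave 95 genes out of 163 such genes named by a probe set with 1 symbol, 113 of the 6334 probe sets tested carried one of their names, and the tested probe sets with 1 symbol named 4617 genes in all. The other 68 genes did not reach the level and are not described. The last genes inside the threshold were Slc18b1, Slc6a14 and Slc4a11, whose 3rd-highest values were 4.02, 4.05 and 4.07, and the first outside were Slc25a3, Slc16a6 and Slc5a12 at 3.95, 3.94 and 3.86. One of the 95, Slc7a6os, is named for lying opposite the transporter gene Slc7a6 and is not itself known as a transporter.

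RNA came from the hippocampus of mice aged 5 to 6 weeks, littermates of both sexes. The labels give 5 days of handling for all of them. They were killed 1 h after an intraperitoneal injection of saline or of 20 mg/kg kainate. Kainate excites neurons through glutamate receptors and brings on seizures. Each array held RNA combined from 3 animals, and 3 arrays were made for each of 4 groups, control with saline, control with kainate, mutant with saline and mutant with kainate. The series title speaks of losing CREB and CREM, the transcription factors that act through the cAMP response element, while the sources used here do not give the alleles, the promoter of any Cre transgene or the cells concerned. Values are GCRMA summaries of Affymetrix MG-U74B arrays on a log2 scale, so a difference of 1 is a 2-fold change, and levels of different probe sets are not compared.

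At excitatory synapses, glutamate is loaded into vesicles by Slc17 proteins and cleared mainly by the astrocyte carriers Slc1a2 (GLT-1) and Slc1a3 (GLAST). Astrocytes also take up GABA through Slc6a11 (GAT-3), return glutamine to neurons through Slc38 carriers and exchange cystine for glutamate through Slc7a11 (xCT). During seizures, ion and bicarbonate carriers, zinc carriers and the mitochondrial Slc25 family, which passes metabolites across the inner membrane, meet a raised load. Many well-known hippocampal carriers, among them Slc12a2, Slc12a5, Slc32a1, Slc2a1, Slc2a3 and Slc30a3, were not measured here.

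CREB binds the palindrome TGACGTCA and, more weakly, its short form TGACG, and promoters were read for these letters because loss of CREB is what the series is about. Promoters from RefSeq (GRCm38.p6) were found for 77 of the 95 genes, in 98 windows of the 250 bases before an annotated start. The palindrome, which reads the same on both strands, stood in 2 of the 98 windows (2.04%), against 1.55% of all 32851 windows. The letters TGACG on either strand, which every palindrome also contains, stood in 23 windows (23.5%) against 17.8% of all, and TGANTCA, the AP-1 site of the Fos and Jun proteins, in 7 (7.14%) against 6.75%. The sequences that follow, with these letters in capitals, are both promoters with the palindrome, Slc25a25 (chr2:32424067-32424316, minus strand, first base of the match at -150) and Slc25a36 (chr9:97111042-97111291, minus strand, at -161), and those of a pair of genes lower after kainate that hold the short form, Slc1a3 (chr15:8710808-8711057, minus strand, at -13) and Slc15a2 (chr16:36784963-36785212, minus strand, at -44).
Slc25a25: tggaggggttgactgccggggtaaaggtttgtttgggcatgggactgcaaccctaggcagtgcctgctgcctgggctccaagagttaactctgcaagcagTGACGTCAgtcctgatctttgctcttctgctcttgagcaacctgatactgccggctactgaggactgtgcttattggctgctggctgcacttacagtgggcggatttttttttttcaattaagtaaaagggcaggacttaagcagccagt
Slc25a36: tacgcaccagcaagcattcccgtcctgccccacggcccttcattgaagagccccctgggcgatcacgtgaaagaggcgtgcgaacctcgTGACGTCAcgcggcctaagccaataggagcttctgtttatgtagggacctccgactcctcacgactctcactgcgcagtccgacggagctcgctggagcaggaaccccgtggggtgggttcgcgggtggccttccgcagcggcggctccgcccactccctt
Slc1a3: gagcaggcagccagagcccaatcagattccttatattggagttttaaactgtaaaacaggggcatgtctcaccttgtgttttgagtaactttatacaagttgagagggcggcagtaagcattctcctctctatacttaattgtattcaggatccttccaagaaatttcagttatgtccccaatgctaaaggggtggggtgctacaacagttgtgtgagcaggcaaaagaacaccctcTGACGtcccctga
Slc15a2: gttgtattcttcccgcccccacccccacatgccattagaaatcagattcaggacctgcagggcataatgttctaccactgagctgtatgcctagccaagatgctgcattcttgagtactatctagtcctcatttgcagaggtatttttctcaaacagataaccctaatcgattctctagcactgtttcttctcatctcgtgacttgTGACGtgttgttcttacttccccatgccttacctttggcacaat

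The windows of the other genes named as passing that had a promoter, Slc6a11, Slc27a1, Slc35a5 and Slc7a11, held none of these letters. A match of letters is a description of the window and not evidence of binding, and no match says only that the letters are not in it. Of the genes with the palindrome, neither passed the test in any comparison. Slc25a25, the ATP-magnesium/phosphate carrier of mitochondria that calcium activates, read 4.22, 2.81 and 2.66 on the control saline arrays numbered 1, 2 and 3, and 4.97, 2.81 and 2.94 after kainate. In labelled mutant arrays it read 3.29, 2.81 and 2.95 with saline and 4.71, 2.89 and 2.84 with kainate. Only the arrays numbered 1 stood above 3, and among them both kainate arrays were above both saline arrays. The averaged kainate difference was 0.41 (SE 0.467, limma adjusted p = 0.721). Slc25a36, a mitochondrial pyrimidine nucleotide carrier, stayed between 3.76 and 4.21 on all arrays.

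Some facts of the whole series bear on these values. Array medians lay between 3.77 and 4.07, and 82 to 92 of the 95 genes read over 4 on an array. The Creb1 probe set was higher in the mutant groups, with means of 8.23 with saline and 7.97 with kainate against 7.35 and 6.98 in controls, and Crem stayed at 2.93 to 3.16, below the level tested, so the groups are called labelled mutant. Of the cell type markers listed, 8 of 12 for astrocytes, 5 of 10 for principal neurons, 4 of 10 for microglia, 3 of 8 for inhibitory neurons, 3 of 9 for endothelium, 1 of 10 for choroid plexus and 1 of 10 for oligodendrocytes were measured, with Gad1 and Trpv4 on the array but below the level. The principal neuron markers measured, Bcl11b, Calb1, Fibcd1, Mef2c and Neurod2, are known from hippocampal neurons. The arrays numbered 1 stood apart from those numbered 2 and 3 in every group. Deviations from group means correlated between arrays of one number in different groups, with r from 0.361 to 0.881. This range overlaps the 0.309 to 0.583 of arrays numbered 2 against 3, so pairing by each number was not shown. A model with the number as a block is quoted where it changes a result. The labels leave the meaning of the numbers unstated.

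Averaged over both genotypes, kainate was followed within 1 h by a higher Slc27a1, a carrier and activator of long-chain fatty acids, and by lower Slc1a3, Slc6a11, Slc15a2 and Slc35a5, in the model with the block. Of these, 2 of the 4 genes that fell are astrocyte uptake carriers, for glutamate and for GABA. The other carriers of astrocytes named here, Slc1a2, Slc4a4, Slc7a11, Slc14a1 and Slc38a3, did not pass in either model. Without the block 0 of 95 genes passed (0.41% of all probe sets tested did), and 8 had an unadjusted p under 0.05 (8.42% against 14.7%). With the block 5 of 95 passed, against 7.63% of all. The median difference of the 95 genes was 0.01 and that of all probe sets 0.01, and 48 genes were above 0 and 47 below. Differences over 0.5 in size were seen in 3 genes, Slc1a3, Slc38a2 and Slc27a1, and the median size was 0.10, against 0.13 over all probe sets. Calls throughout are limma p-values adjusted by Benjamini-Hochberg over all 6334 probe sets, at 0.05.

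**Figure D1:**
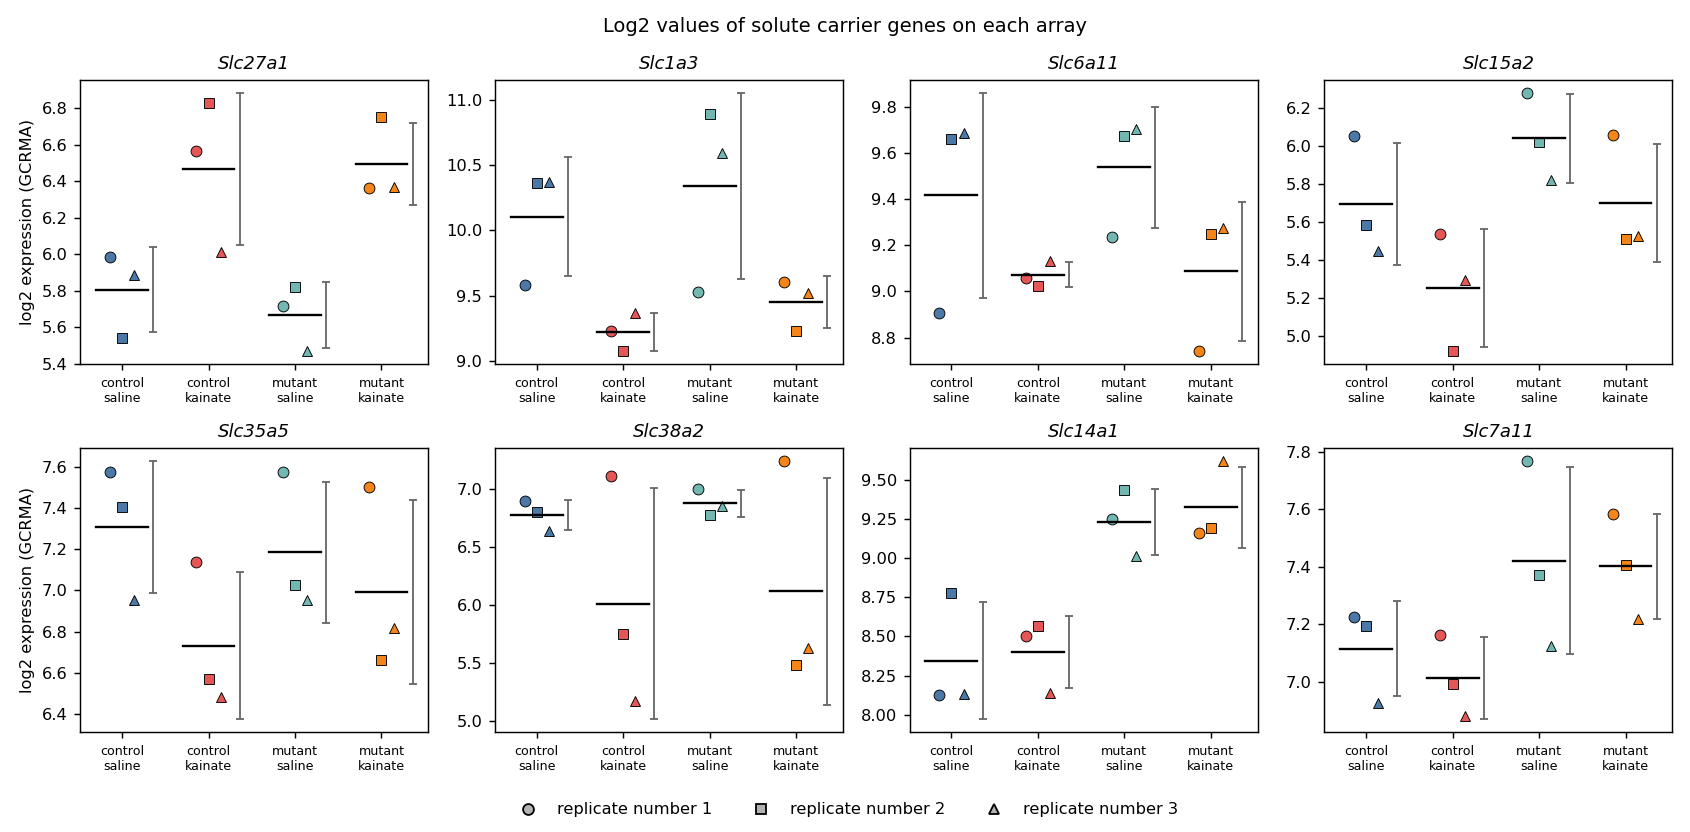
Log2 value of 8 solute carrier genes on each of the 12 arrays, by group, with the symbol giving the replicate number, the black line the group mean and the grey bar 1 SD either side (n = 3). Slc27a1 is higher on every kainate array than on any saline array of the same genotype, Slc1a3 and Slc38a2 are lower after kainate on arrays numbered 2 and 3, and Slc14a1 is higher on every labelled mutant array than on any control array.

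Slc1a3 read 9.58, 10.37 and 10.37 on control saline arrays and 9.22, 9.07 and 9.37 on control kainate arrays. In labelled mutant arrays it read 9.53, 10.89 and 10.60 with saline and 9.61, 9.23 and 9.52 with kainate. The values did not overlap in controls, while in labelled mutants the saline array numbered 1 lay among the kainate arrays. The averaged difference was -0.89 (1.85-fold lower, SE 0.228, 95% interval -1.39 to -0.38). It did not pass in the plain model (adjusted p = 0.14) and passed with the block (0.0301), a call that was lost without any single array numbered 2 or 3. In this whole tissue, fewer cells of a type and less RNA per cell cannot be told apart. Of the 8 astrocyte markers, 5 were above 0 and 3 below in this averaged comparison, with a median of 0.05 and array means of 8.0 to 8.05 in control saline, 8.12 to 8.22 in control kainate, 8.26 to 8.38 in labelled mutant saline and 8.30 to 8.40 in labelled mutant kainate arrays. Their part in the result was not tested.

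Slc6a11 read 8.90, 9.66 and 9.69 on control saline arrays and 9.06, 9.03 and 9.13 after kainate. In labelled mutants it read 9.24, 9.67 and 9.70 with saline and 8.74, 9.25 and 9.27 with kainate. Its saline arrays numbered 1 were low in both genotypes, so the groups overlapped in both. The averaged difference was -0.40 (1.32-fold lower, SE 0.16, adjusted p = 0.291, 0.0388 with the block), and this call too was lost without any single array numbered 2 or 3. The astrocyte markers, whose array means are given above, had 5 of 8 above 0 in this comparison, with a median of 0.05. The mean of the measured inhibitory neuron markers, Cnr1, Gad2 and Maf, was lower after kainate. It was 7.91 to 8.17 on control saline arrays against 6.87 to 7.56 after kainate, and 7.88 to 8.18 against 7.47 to 7.91 in labelled mutants. The part of either list in the result was not tested.

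The other carriers of glutamate and its relatives did not pass after kainate. Slc1a2, the main glutamate uptake carrier of the forebrain, stood between 12.97 and 13.33 on all arrays, with an averaged kainate difference of -0.02 (95% interval -0.15 to 0.11). Slc17a7 (VGLUT1), which fills glutamate vesicles of cortical and hippocampal neurons, stood between 10.52 and 10.92, with a difference of -0.04 (-0.20 to 0.12). Neither interval reaches a difference as large as that of Slc1a3. Slc17a6 (VGLUT2) read 4.27 to 5.60 with a difference of -0.02 (SE 0.211), and Slc7a11 differed by -0.06 (SE 0.126).

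Slc38a2 (SNAT2), a sodium-coupled carrier of small neutral amino acids, had one of the widest splits by replicate number. With saline it read 6.89, 6.80 and 6.64 in controls and 7.0, 6.77 and 6.85 in labelled mutants. After kainate it read 7.11, 5.75 and 5.18 in controls and 7.24, 5.48 and 5.63 in labelled mutants. The arrays numbered 1 were slightly higher after kainate in both genotypes, whereas all 4 kainate arrays numbered 2 and 3 were lower by more than 1 than their saline arrays. Over all arrays the difference was -0.76 (SE 0.359, adjusted p = 0.353, 0.072 with the block). In the arrays numbered 2 and 3 alone it was -1.25 (adjusted p = 0.00038). The related Slc38a1 (SNAT1) differed by -0.26 (SE 0.176) over all arrays and by -0.41 in numbers 2 and 3 (adjusted p = 0.0299), and Slc38a3, the glutamine carrier of astrocytes, by -0.16 (SE 0.223). Over the 24 genes placed by family number under amino acids and transmitters, Slc7a6os among them, 2 passed with the block, both lower, and the median difference was -0.03.

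Among carriers of other substrates, Slc27a1 read 5.99, 5.54 and 5.89 on control saline arrays and 6.57, 6.83 and 6.01 on control kainate arrays. In labelled mutants it read 5.72, 5.82 and 5.47 with saline and 6.36, 6.75 and 6.37 with kainate. Every kainate array was above every saline array within each genotype, and the difference was above 0 in each of the numbers 1, 2 and 3 (0.61, 1.11 and 0.51, averaged over genotypes). The averaged difference was 0.75 (1.68-fold, SE 0.154, 95% interval 0.41 to 1.09, adjusted p = 0.0826, 0.0161 with the block). It was the gene with the smallest p of the 95 for kainate averaged over genotypes, and it held with the block without 8 of the 12 arrays in turn. It was lost without control kainate replicate 2, labelled mutant saline replicate 2, labelled mutant saline replicate 3 or labelled mutant kainate replicate 3.

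Slc15a2 (PEPT2), a proton-coupled carrier of small peptides, read 6.05, 5.58 and 5.45 with saline and 5.54, 4.92 and 5.29 with kainate in controls. In labelled mutants it read 6.28, 6.02 and 5.82 with saline and 6.06, 5.51 and 5.53 with kainate. The groups overlapped in both genotypes, but within each replicate number the kainate array was lower in both. The averaged difference was -0.39 (1.31-fold lower, SE 0.16, adjusted p = 0.297, 0.033 with the block). The call held without any 1 of the arrays numbered 1 or without control kainate replicate 3, and was lost without any other. The 1 choroid plexus marker measured, Clic6, differed by -0.97 in the same comparison and by -1.54 in controls alone, passing in neither model, with 6.28 to 6.72 on control saline and 4.19 to 5.77 on control kainate arrays against 5.30 to 7.02 and 5.08 to 6.83 on labelled mutant ones. Its part in the result was not tested.

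Slc49a4, a lysosomal membrane carrier, read 7.23, 7.73 and 7.87 with saline and 7.22, 7.05 and 6.85 with kainate in controls, and 7.55, 7.88 and 7.59 against 7.45, 6.99 and 7.41 in labelled mutants. Both genotypes showed kainate values wholly below the saline values. The averaged difference of -0.48 (SE 0.139) did not pass (adjusted p = 0.165, 0.0592 with the block). Slc44a1 (CTL1), a choline carrier, differed by -0.16 (SE 0.0841), and Slc13a3, a sodium-coupled carrier of dicarboxylates, by -0.32. For Slc13a3, control kainate replicate 3 read 4.93, and all other arrays read 5.77 to 6.30. Of the 12 genes of other substrates, 2 passed with the block, 1 higher and 1 lower, with a median of 0.01.

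Among the 19 genes of sugars and nucleotide sugars, Slc35a5, of the Golgi family that carries nucleotide sugars, was the only one to pass. It read 7.57, 7.40 and 6.95 with saline and 7.14, 6.57 and 6.48 with kainate in controls. In labelled mutants it read 7.58, 7.03 and 6.95 with saline and 7.50, 6.66 and 6.82 with kainate. Values overlapped between the groups, and the arrays numbered 1 were the highest of each group. The averaged difference was -0.39 (1.31-fold lower, SE 0.197, adjusted p = 0.393, 0.0374 with the block), again lost without any single array numbered 2 or 3. The median of the 19 genes was -0.02, and their differences ran from -0.39 to 0.20.

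No gene passed among the 12 carriers of ions and bicarbonate, the 9 carriers of metals or the 19 mitochondrial carriers, in either model. The medians were 0.06, 0.03 and 0.09. Slc4a4 (NBCe1), the sodium bicarbonate cotransporter of astrocytes, differed by -0.06 (SE 0.0827) at the probe set used, and its other tested probe sets differed by -0.45 (SE 0.203, adjusted p = 0.336, 0.0622 with the block) and -0.37 (SE 1.15, adjusted p = 0.908). The neuronal bicarbonate carrier Slc4a10 differed by -0.20 (SE 0.11). The potassium-dependent sodium/calcium exchangers Slc24a2 and Slc24a3 differed by -0.12 (SE 0.172) and 0.17 (SE 0.205). Of the zinc carriers, the exporter Slc30a1 differed by 0.02 (SE 0.095), the importer Slc39a10 by -0.02 (SE 0.196) and Slc30a6, of the secretory pathway, by 0.28 (SE 0.167). Of the mitochondrial carriers, the ADP/ATP exchanger Slc25a4 differed by -0.14 (SE 0.101), the aspartate/glutamate exchanger Slc25a12 by 0.26 (SE 0.12) and the glutamate carrier Slc25a22 by 0.16 (SE 0.0973).

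**Figure D2:**
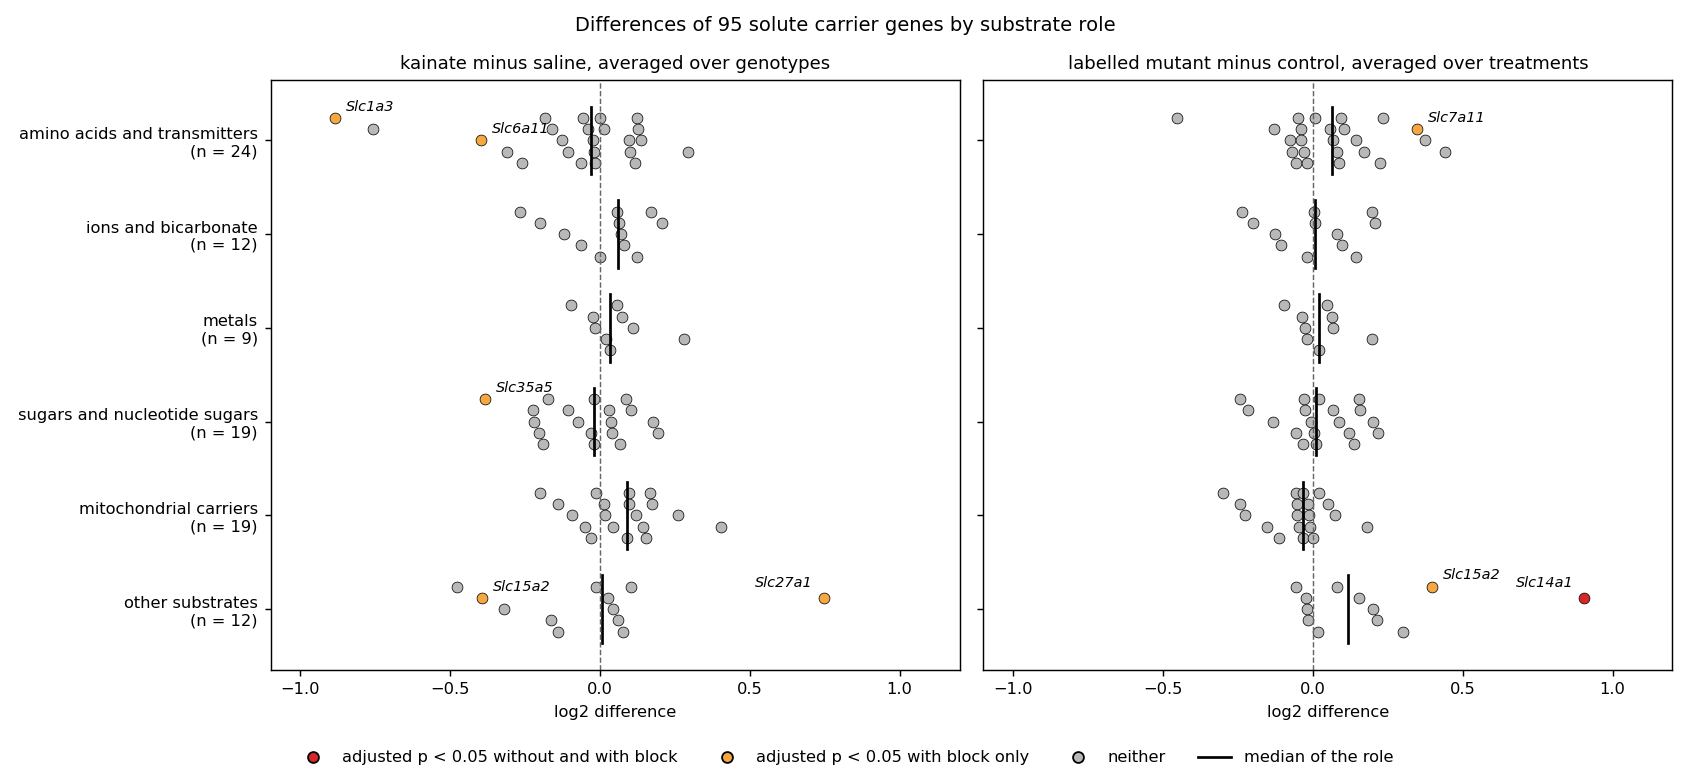
Log2 differences of the 95 solute carrier genes by substrate role, for kainate minus saline (left) and labelled mutant minus control (right), each averaged over the other factor, with 1 point a gene, orange and red for adjusted p under 0.05 as keyed and a black line at the median of the role. The role medians lie close to 0, and the named points are the genes that passed, 5 on the left and 3 on the right.

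In control animals alone, kainate against saline gave differences from -0.88 (Slc1a3) to 0.66 (Slc27a1). In this comparison 0 of 95 genes passed (0.158% of all), with the block also 0 (0.584% of all), and 8 had an unadjusted p under 0.05, 5 higher and 3 lower (8.42% against 11.6%). The values of both groups did not overlap for 20 genes, 16 higher and 4 lower (21.1% against 19.4% of all). Both shares of genes were near or below those of all probe sets. The 4 lower genes were Slc1a3, Slc49a4, the bicarbonate carrier Slc4a10 and the sialic acid carrier Slc17a5, which read 5.83, 5.84 and 5.82 with saline and 5.70, 5.62 and 5.55 with kainate. The smallest adjusted p was 0.424 without and 0.0778 with the block.

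Many of the small differences above 0 in controls sat on genes close to the floor. Of 21 genes with a mean under 4.5, 20 were above 0 in this comparison with a median of 0.17, against 35 of the other 74 with a median of -0.01. All 1226 probe sets with a mean as low had a median of 0.15. After each array was centred on its median, 15 of the 21 were above 0 with a median of 0.03. Genes with an unadjusted p under 0.05 in this range included Slc25a13, at 4.0, 4.04 and 3.83 with saline against 4.06, 4.40 and 4.32 with kainate, and Slc35e1, at 4.04, 4.16 and 3.94 against 4.19, 4.35 and 4.57. Centring moved the median of all probe sets by -0.14 in this comparison, and with it 28 of the 95 genes were above 0, against 55 as deposited and 52 after quantile normalization, so the balance of higher and lower genes in controls depended on the scaling.

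In labelled mutants, kainate against saline gave 0 of 95 genes without the block (0.174% of all) and 0 with it (0.363%), and 2 genes, Slc27a1 and Slc1a3, had an unadjusted p under 0.05 (2.11% against 6.28%). The values did not overlap for 3 genes (3.16% against 9.13%), Slc27a1 higher at 0.83, and Slc49a4 and the hexose carrier Slc2a6 lower at -0.39 and -0.22. Fewer of these genes separated than of all probe sets. Slc27a1 and Slc1a3 differed by 0.66 and -0.88 in controls and by 0.83 and -0.89 in labelled mutants.

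The kainate response was not shown to differ between genotypes for any of these genes. For the difference of the responses, 0 of 95 genes passed with limma in either model (0% of all without the block and 0% with it), and 4 had an unadjusted p under 0.05, all lower in labelled mutants (4.21% against 2.32%). For Slc1a3 the difference of the responses was 0.00 with a wide 95% interval of -1.02 to 1.01, for Slc27a1 it was 0.16 (-0.52 to 0.84), and for Slc38a2 0.01 (-1.58 to 1.60). The largest was that of Slc38a3, 0.66 (SE 0.445), where 1 control kainate array read 4.03 and the other 11 read 4.83 to 5.68. The 4 genes were Slc16a4, at -0.46, and Slc25a51, Slc37a1 and Slc22a21. Slc16a4 and Slc22a21 lay close to the floor, with means of 4.15 and 4.14. In this comparison 4 of the 21 genes with a mean under 4.5 were above 0, with a median of -0.20. All probe sets with a mean as low had a median of -0.19. With centring, 78 of 95 genes were above 0, against 45 as deposited and 43 after quantile normalization, and centring moved the median of all probe sets by 0.19. The 4 genes with an unadjusted p under 0.05 became 1 with centring, above 0, and 1 after quantile normalization, below 0.

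Large kainate differences were fewer on the arrays numbered 1. The median size over the 95 genes was 0.12 in number 1, 0.14 in number 2 and 0.15 in number 3. Over all probe sets it was 0.099, 0.188 and 0.185. Averaged over genotypes, the difference was over 0.5 in size for 2 of 95 genes in number 1 (2.11%, against 3.16% of all probe sets), for 9.47% in number 2 (17.1% of all) and for 7.37% in number 3 (13.3% of all). The 2 genes in number 1 were Slc27a1 and Slc25a25, both higher. In numbers 2 and 3, Slc1a3 differed by -1.48 and -1.04 against -0.14 in number 1, Slc38a2 by -1.17 and -1.34 against 0.23, and Slc49a4 by -0.78 and -0.60 against -0.06. Slc6a11 differed by -0.53 and -0.49 against -0.17. Among these genes Slc38a2 had differences of both signs. Other genes differed in number 1 about as much as in number 3. In numbers 1, 2 and 3, Slc27a1 differed by 0.61, 1.11 and 0.51 and Slc15a2 by -0.37, -0.59 and -0.22. Slc35a5 differed by -0.255, -0.60 and -0.30. Slc27a1, Slc15a2 and Slc35a5 each kept one sign in all 3.

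**Figure D3:**
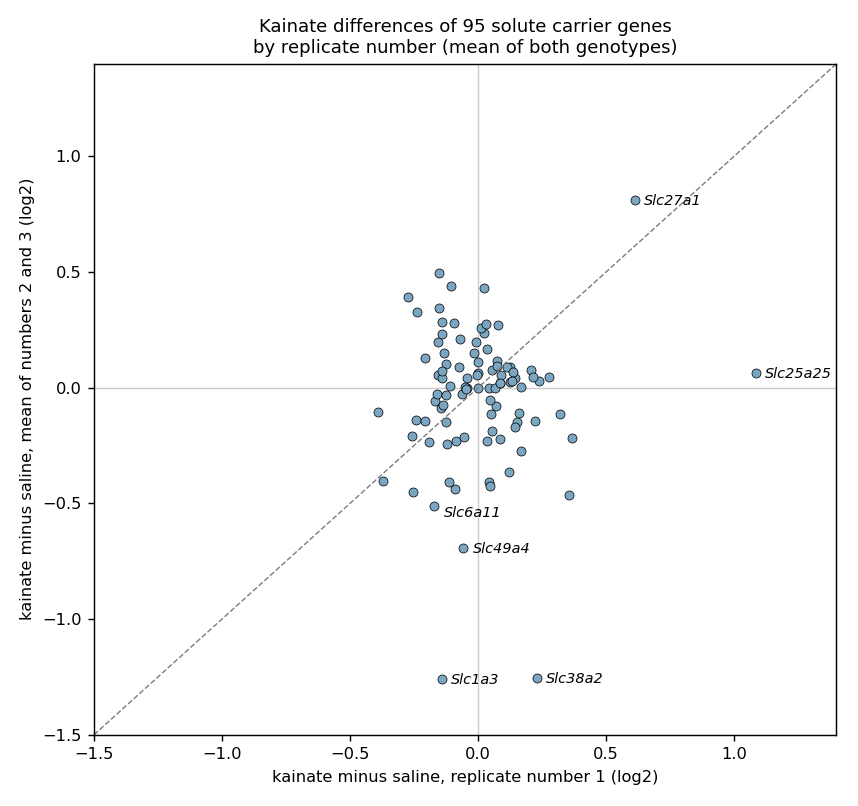
Kainate minus saline (log2, mean of both genotypes) on arrays numbered 1 (horizontal) against the mean of numbers 2 and 3 (vertical), 1 point for each of the 95 solute carrier genes, with equal values on the dashed line and names for genes past 0.5 on either axis. Slc1a3 and Slc38a2 lie near 0 in number 1 and near -1.26 and -1.25 in numbers 2 and 3, Slc27a1 is high on both axes, and Slc25a25 is high in number 1 only.

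Fitted on the arrays numbered 2 and 3 alone, more genes passed, as did more probe sets of all kinds. In controls, 5 genes passed (10.1% of all probe sets did), Slc1a3, Slc6a11, Slc38a2, Slc49a4 and Slc35a5, each lower. In labelled mutants, 7 passed (9.41% of all), with Slc1a3, Slc6a11, Slc38a2 and Slc4a10 lower and Slc24a3, Slc25a12 and Slc30a6 higher. Averaged over genotypes 17 passed (22.3% of all). These included Slc1a3 at -1.26 (adjusted p = 0.000104), Slc6a11 at -0.51 (0.00106), Slc49a4 at -0.69 (0.00425), Slc24a3 at 0.39 (0.00493), Slc4a10 at -0.36 (0.00654), Slc25a12 at 0.44 (0.0089) and Slc27a1 at 0.81 (0.0147). These fits have 2 arrays a group, and the share of genes that passed was below that of all probe sets in each of the 3 comparisons.

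Averaged over the 4 groups, 3 genes read more than 1 apart between the arrays numbered 1 and the others (3.16%, against 5.26% of all probe sets). Slc5a3 (SMIT1), the sodium-coupled carrier of myo-inositol, had a mean offset of -1.54 in number 1, Slc9a7, a sodium/proton exchanger of the Golgi, one of -1.23, and Slc25a25 one of 1.46. In each of these 3 genes the offset had the same sign in all 4 groups. That of Slc25a25 was smaller with saline than with kainate in both genotypes. In labelled mutants this gene read 3.29, 2.81 and 2.95 with saline against 4.71, 2.89 and 2.84 with kainate.

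The comparison of labelled mutants with controls, averaged over both treatments, asked what differed with genotype whether or not kainate was given. Slc14a1 (UT-B), the urea carrier that brain astrocytes express, was higher in labelled mutants by 0.91 (1.87-fold). It was the only one of the 95 genes to pass without the block, and Slc7a11 and Slc15a2 were also higher with the block. All 3 genes were higher and none was lower. Without the block 1 of 95 genes passed (0.253% of all), with it 3 (2.32% of all), and 9 had an unadjusted p under 0.05, 7 higher and 2 lower (9.47% against 6.47%). The medians of the 95 genes and of all probe sets were both 0.00, the median size of the difference was 0.08 in both, and Slc14a1 was the only one past 0.5.

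Slc14a1 read 8.12, 8.78 and 8.13 in control saline and 8.51, 8.56 and 8.14 in control kainate arrays. It read 9.25, 9.44 and 9.02 in labelled mutant saline and 9.16, 9.19 and 9.62 in labelled mutant kainate arrays. Every labelled mutant array was above every control array, and the treatments overlapped within each genotype. The difference was 0.89 with saline (adjusted p = 0.482) and 0.92 with kainate (0.391), and averaged it was 0.91 (SE 0.15, 95% interval 0.57 to 1.24, adjusted p = 0.042, 0.00959 with the block). The plain call was near the threshold. Leaving out 1 array at a time it held only without control saline replicate 2, with differences of 0.83 to 1.01 and adjusted p of 0.0292 to 0.145, and it was lost with centring (0.0815), with no filter on low values (0.0621) and in the arrays numbered 2 and 3 (0.0613, where 0 of 95 genes passed, against 0.726% of all). With the block it was lost only without control saline replicate 3.

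Slc7a11 (xCT), which brings in cystine for glutathione and releases glutamate, read 7.22, 7.20 and 6.93 in control saline and 7.16, 6.99 and 6.88 in control kainate arrays. In labelled mutants it read 7.77, 7.37 and 7.12 with saline and 7.58, 7.41 and 7.22 with kainate. The groups separated with kainate and overlapped with saline, and the labelled mutant array was the higher in each replicate number and treatment. The averaged difference was 0.35 (1.27-fold, SE 0.126, adjusted p = 0.603, 0.045 with the block), and with the block it was lost without any 1 of the 12 arrays. Slc15a2, whose values are given above, was 1.32-fold higher, a log2 difference of 0.40 (SE 0.16, adjusted p = 0.678, and 0.0462 with the block), a call that held only without control kainate replicate 3.

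Markers of astrocytes and microglia lay mostly above 0 in the same comparison, and the 1 oligodendrocyte marker measured lay below. Of the 8 astrocyte markers measured, 7 were above 0 in this averaged comparison with a median of 0.24, 0 passed without the block and 3 with it, while the other 5 passed in neither model, and the array means of the list, given above, did not overlap between labelled mutant and control arrays. The 4 microglia markers were all above 0 with a median of 0.62, 1 passed without the block and 3 with it, and the list's array means were 5.50 to 5.64 and 5.73 to 5.88 in control saline and kainate arrays against 5.89 to 6.35 and 6.34 to 6.57 in labelled mutant ones. Mobp, the oligodendrocyte marker, differed by -0.21, with 8.43 to 8.83 and 7.91 to 8.54 on control saline and kainate arrays against 8.05 to 8.47 and 7.72 to 8.76 on labelled mutant ones. The 5 principal neuron markers had a median of -0.40 with 1 above 0, and 0 passed without the block and 2 with it. The list's array means were 7.958 to 8.367 and 8.003 to 8.279 in control saline and kainate arrays. In labelled mutant arrays they were 7.486 to 7.96 and 7.684 to 8.027, overlapping the control ranges with each treatment. The part of these shifts in the values of Slc14a1, Slc7a11 and Slc15a2 was not tested.

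The other astrocyte carriers named did not pass in either model. Slc1a2 read 13.16, 13.05 and 12.99 in control saline against 13.33, 13.22 and 13.16 in labelled mutant saline arrays, and the averaged difference was 0.15 (95% interval 0.02 to 0.28, adjusted p = 0.678, 0.167 with the block). Slc4a4 differed by 0.20 (0.02 to 0.38, limma adjusted p = 0.714) at the probe set used. Its other tested probe sets differed by 0.08 (SE 0.203) and 0.04 (SE 1.15). Slc1a3 differed by 0.23 (-0.27 to 0.74) and Slc6a11 by 0.07 (-0.29 to 0.42). Slc6a20a, a carrier of proline and related imino acids, read 5.50 to 5.88 on control and 5.88 to 6.59 on labelled mutant arrays and did not overlap between genotypes with either treatment, and the difference of 0.44 (SE 0.111) did not pass (adjusted p = 0.201, 0.0581 with the block).

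Among genes of neurons and mitochondria, Slc17a6 differed by -0.45 (SE 0.211, adjusted p = 0.787), with labelled mutant values of 4.27 to 4.94 and control values of 4.29 to 5.60, and Slc17a7 by 0.01 (95% interval -0.15 to 0.17). Slc45a1, a proton-linked sugar carrier of brain, differed by -0.24 (SE 0.0896) and Slc25a22 by -0.23 (SE 0.0973), the 2 lower genes with an unadjusted p under 0.05. Neither passed in either model. Of the 19 mitochondrial carriers, 15 were below 0 with a median of -0.03 and none passed, and of the 12 genes of other substrates 8 were above 0 with a median of 0.12, of which 2 passed with the block.

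With saline alone, labelled mutants against controls gave 0 of 95 genes without the block (0% of all) and 0 with it (0.142%), and 3 genes had an unadjusted p under 0.05 (3.16% against 3.88%). The values separated for 6 genes (6.32% against 8.81%), higher for Slc14a1, Slc6a20a, Slc4a4 and Slc25a40 and lower for Slc45a1 and Slc17a5. With kainate, 0 of 95 genes passed without the block (0.0632% of all) and 0 with it (0.111%), and 5 had an unadjusted p under 0.05 (5.26% against 4.67%). The values separated for 16 genes, 5 higher and 11 lower (16.8% against 10.7%). The higher genes were Slc14a1 at 0.92, Slc13a3 at 0.47, Slc6a20a at 0.40, Slc7a11 at 0.39 and Slc44a1 at 0.28. For Slc13a3 the difference was 0.22, 0.05 and 1.13 in replicate numbers 1, 2 and 3, so it came mostly from number 3. The lower ones ran from -0.55 (Slc17a6) to -0.06 (Slc17a7), and some, such as Slc16a12 and Slc22a21, lay close to the floor. Of the 21 genes with a mean under 4.5, 3 were above 0 with a median of -0.09, and 12 were above 0 after centring. All probe sets with a mean as low had a median of -0.10. With centring 69 of 95 genes were above 0, against 44 as deposited and 46 after quantile normalization.

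Of the 95 genes, 15 had 1 or more other probe sets that could be tested, 18 in all. In the averaged kainate comparison 12 of these 18 had the sign of the probe set used, and in the averaged genotype comparison 15 of 18. For Slc14a1, the other tested probe set read 7.70, 7.69 and 7.36 in control saline and 8.05, 8.08 and 8.05 in control kainate arrays, against 8.55, 8.46 and 8.19 and 8.62, 8.09 and 8.64 in labelled mutant ones. It was also higher on every labelled mutant array than on any control array, by 0.60 on average (adjusted p = 0.0819, 0.024 with the block). The gap was narrow, with 8.08 the highest control value and 8.09 the lowest labelled mutant value. The genotype difference was 0.82 with saline and 0.39 with kainate. In controls this probe set was higher after kainate by 0.48 without overlap, passing in neither model, while the chosen probe set differed by 0.06 and overlapped. A further probe set with a mean of 2.52 was below the level tested. The other probe set of Slc1a3 was lower after kainate by a smaller amount, -0.24 (SE 0.112, adjusted p = 0.348, 0.133 with the block), against -0.89.

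With the block, 4 of the 18 other probe sets passed for kainate, against 7.63% of all probe sets. All were lower, in genes whose chosen probe set did not pass, and they were named after their values were seen. Slc44a1 had a difference of -1.14 at its other probe set (adjusted p = 0.127, 0.0237 with the block), which read 4.79, 5.00 and 5.06 with saline and 4.75, 3.47 and 3.22 with kainate in controls, and 4.90, 4.97 and 5.03 against 4.63, 3.30 and 3.57 in labelled mutants. Slc25a46, a protein of the mitochondrial outer membrane, differed by -1.22 (adjusted p = 0.0256 with the block) and -0.44 (0.0436) at its other probe sets and by 0.09 at the chosen one. Slc35e3, of the nucleotide sugar family, differed by -0.42 (0.0346) against -0.19 at the chosen probe set. In each of the 4 the difference was larger in arrays numbered 2 and 3. The sources used here do not say which transcript each probe set reads.

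**Figure D4:**
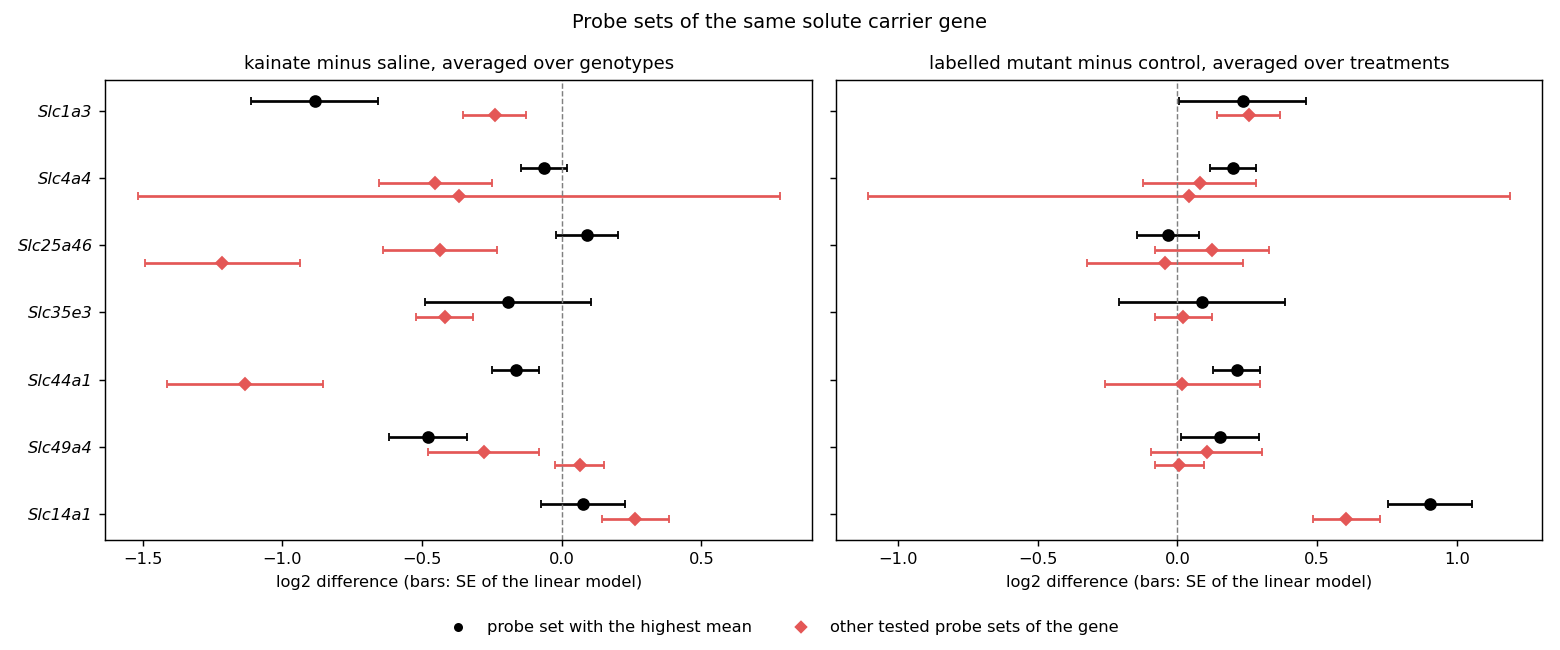
Log2 differences of the chosen probe set (black) and the other tested probe sets (red) of 7 solute carrier genes, for kainate minus saline (left) and labelled mutant minus control (right), with bars of 1 SE from the linear model. For kainate the probe sets of Slc25a46 lie at 0.09, -0.44 and -1.22 and those of Slc44a1 at -0.16 and -1.14, while for genotype both probe sets of Slc14a1 lie above 0.5.

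Genes that work beside these carriers gave no call without the block. Of enzymes of glutamate and GABA metabolism 3 of 4 on the array were tested, and Gad2, which makes GABA, had a kainate difference of -1.05 (SE 0.318, adjusted p = 0.182, 0.0512 with the block). Of the ion pumps 3 of 4 were tested, and 1 passed for kainate with the block, against 7.63% of all probe sets. It was Atp1b2, a sodium pump subunit of astrocytes, at 0.42 (limma adjusted p = 0.191, 0.0376 with the block). Atp1b2 is also 1 of the 8 astrocyte markers measured, of which 5 were above 0 and 3 below in that comparison, with a median of 0.05. Of the other transporter families, the Slco and ABC genes, 17 of 29 were tested and 0 passed in either averaged comparison. Of partners and regulators of the carriers 5 of 6 were tested, among them the kinases Stk39, Oxsr1 and Wnk3, and 0 passed.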

How the data were processed

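RNA of 12 pools was hybridised to Affymetrix MG-U74B arrays. The deposited log2 values were made by the authors with GCRMA in R 2.4.1, per the submitters' processing notes, and the sources used here do not give GCRMA's settings, a genome build or an annotation. GCRMA subtracts background by probe sequence, so values near 4 carry little signal. Of 12477 entries, 66 controls were left out, and of the remaining 12411 probe sets those over 4 on at least 3 arrays, 6334 in all, were tested. Gene symbols came from the platform annotation, and all 95 matched RefSeq by Entrez identifier with 0 symbols changed.

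The linear model (limma 3.58.1 under R 4.3.3) had a mean per group over all 12 arrays, moderated by eBayes with trend, and gave 7 comparisons, with Benjamini-Hochberg adjustment over all probe sets. The calculation was tested on simulated data. Named genes were those called in any comparison with or without the block, the 5 smallest p-values of each comparison, a list of known hippocampal carriers and the other probe sets of called genes. Of that list, Slc16a7 was below the level tested. Genes named for separated values, for the arrays numbered 2 and 3, for offsets by number or as other probe sets with a call were chosen after their values were seen. The genes and lists were chosen with earlier results of these data known.

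Groups share replicate numbers. Deviations from group means of all 18 pairs of arrays with one number in different groups correlated, with r from 0.361 to 0.881 (0.348 to 0.875 over the 95 genes), while an array numbered 2 and one numbered 3 from different groups, 12 such pairs, gave 0.309 to 0.583 (0.117 to 0.622 over the 95 genes). The labels call replicates biological. Alternatives were the block, numbers 2 and 3 alone, centring, quantile normalization, other filters, no trend, each array left out and other probe sets.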

Additional observations from a re-analysis of the deposited data

How the results depend on the processing

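With 3 arrays a group, and 12 in all, the number of arrays limits every value, and genes close to the floor carry little signal. The count of the 95 genes that passed for kainate averaged over genotypes was 0, and became 5 with the replicate block, 3 with the block and quantile normalization, 1 with quantile normalization alone and 17 in numbers 2 and 3, with or without the block. For genotype averaged over treatments the count was 1, and became 3 with the block, 2 with the block and quantile normalization, and 0 in numbers 2 and 3 (1 with the block there, Slc14a1), with centring or with no filter. In numbers 2 and 3 the kainate count became 5 in controls and 7 in labelled mutants, or 7 and 10 with the block, a setting added after the data were seen, as was the block without each array. With each array left out in turn the count was 0 to 1 for both averaged comparisons, and with the block 0 to 13 for kainate averaged (8 without either saline array numbered 1), 0 to 2 for genotype averaged and 0 to 1 for kainate in labelled mutants. Over all 12 arrays the block changed no other count.

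Signs turned in 7 cases, none of which passed. Slc6a11 with saline gave a genotype difference of -0.14 without control saline replicate 1 (-0.14 to 0.27 over single arrays left out), Slc27a1 with kainate -0.20 without control kainate replicate 3 (-0.20 to 0.21), and Slc14a1 a kainate difference in labelled mutants of -0.17 with the block without mutant kainate replicate 3. At other probe sets, Slc49a4 gave 0.19 for kainate in controls and 0.065 averaged, Slc14a1 a difference of responses of -0.43, and Slc25a22 an averaged kainate difference of -1.03. Apart from the settings added later, 1981 values kept their direction and side of the threshold, 33 passed newly and 15 no longer passed. The cause of these shifts was not tested.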
